A study of Sus scrofa with 14 samples.

Results

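The VEGF and angiopoietin ligands and receptors are described here through 10 genes, VEGFA, VEGFC, ANGPT1, ANGPT2, FLT1, KDR, FLT4, NRP1, NRP2 and TEK. They were chosen by symbol, and all 10 were found among the 30071 gene identifiers of the count tables. Mammary glands came from multiparous sows (Sus scrofa, the pig) in their second breeding cycle at 5 stages, namely day 90 of gestation (G90), day 0 of lactation (L0), day 20 of lactation (L20), and 2 days (PI2) and 7 days (PI7) after natural involution began. There was no treatment or genetic change, and each stage held 2 sows whose frozen gland pieces gave 1 library of nuclei each. Spatial spots were measured on 1 gland section at G90 and 1 at PI2, and milk cells in 1 colostrum library at L0 and 1 mature milk library at L20. The stage of the L0 milk library was taken from its source and time labels, while its title carries the letter that marks G90 in the other titles. L0 and L20 are called lactation, and G90, PI2 and PI7 non-lactation.

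Vascular endothelial growth factors are secreted proteins that make vessels sprout and leak. VEGFA binds the receptor tyrosine kinases FLT1 (VEGF receptor 1, which binds VEGFA tightly but signals weakly) and KDR (VEGF receptor 2, the main signalling receptor of blood vessels), while VEGFC binds FLT4 (VEGF receptor 3) and, after processing, KDR, and is known for driving lymphatic growth. The neuropilins NRP1 and NRP2 are co-receptors that VEGFs share with class 3 semaphorins. ANGPT1, classically made by the cells around vessels, activates the receptor TEK (also called TIE2) and keeps vessels quiet, and ANGPT2, released by endothelium, can oppose it. The mammary gland builds a dense capillary bed around its alveoli before lactation and removes much of it with the epithelium at involution.

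The 4 receptor genes on which the comparison of blood with lymphatic endothelium turns, or that both kinds of vessel carry, are shown by the bases just before their transcription starts. The windows were read from the RefSeq annotation and sequence of Sscrofa11.1, the build to which the libraries had been aligned, and each holds the 250 bases 5′ of the start shared by most annotated transcripts of the gene. The windows are chr11:5795300-5795549 on the minus strand for FLT1, chr8:41856380-41856629 on the minus strand for KDR, chr2:78075758-78076007 on the plus strand for FLT4, and chr1:196029516-196029765 on the minus strand for TEK. Each sequence runs 5′ to 3′ towards its gene, and capitals mark the GC box GGGCGG on either strand.
FLT1: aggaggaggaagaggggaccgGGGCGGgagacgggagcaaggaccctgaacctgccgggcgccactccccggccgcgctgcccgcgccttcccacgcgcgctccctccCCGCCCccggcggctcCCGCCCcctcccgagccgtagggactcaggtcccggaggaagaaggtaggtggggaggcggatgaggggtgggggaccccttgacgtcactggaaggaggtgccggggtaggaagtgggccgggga
KDR: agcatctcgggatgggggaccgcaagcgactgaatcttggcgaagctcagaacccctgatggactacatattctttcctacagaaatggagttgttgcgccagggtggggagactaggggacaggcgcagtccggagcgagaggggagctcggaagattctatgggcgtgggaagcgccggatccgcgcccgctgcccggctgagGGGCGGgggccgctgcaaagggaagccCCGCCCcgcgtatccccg
FLT4: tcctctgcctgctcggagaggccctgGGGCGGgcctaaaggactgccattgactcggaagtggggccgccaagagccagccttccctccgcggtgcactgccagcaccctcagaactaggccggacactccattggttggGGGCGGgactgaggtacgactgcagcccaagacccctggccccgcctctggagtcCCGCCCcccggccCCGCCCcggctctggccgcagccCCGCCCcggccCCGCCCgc
TEK: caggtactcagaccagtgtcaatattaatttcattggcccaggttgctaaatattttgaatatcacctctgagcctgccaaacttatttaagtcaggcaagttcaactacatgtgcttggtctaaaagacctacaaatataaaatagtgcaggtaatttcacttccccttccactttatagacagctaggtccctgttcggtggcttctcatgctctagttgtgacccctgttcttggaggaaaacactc

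The GC box occurred 3 times in the FLT1 window, 2 times in that of KDR, 6 times in that of FLT4 and not in that of TEK, against at least 1 occurrence in 47.4% of 19556 windows of the same length. The exact letters CAGGAA, a form of the ETS site, occurred on neither strand in these 4 windows and in 21.2% of all windows. Other forms around the core GGAA were not counted, and that core does occur in each printed window. GC content was 74.4% for FLT1, 64.8% for KDR, 73.2% for FLT4 and 41.6% for TEK, with a median of 58.4% over all windows. The FLT1 window lay inside 2 longer transcripts of the gene and the TEK window inside 3, in both cases without touching an annotated exon. The FLT4 window overlapped an exon of the opposite-strand RNA LOC102162368. The letters describe these windows only and were not related to the levels that follow.

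The 10 glands held 18962138 to 53165191 unique molecular identifiers (UMIs, each a counted RNA molecule), and 126833 of 128233 barcodes passed the filters on nuclei. Glands shared 0.557% to 1.23% of the smaller library's barcodes. Nuclei were placed in classes by lists of marker genes that contain none of the 10 members. The classes held 76362 luminal epithelial nuclei, 1169 myoepithelial, 525 mural (pericytes and vessel smooth muscle), 10668 fibroblast, 509 adipocyte, 4471 blood endothelial, 6212 lymphatic endothelial, 4691 macrophage, 3990 T and NK and 370 B and plasma nuclei, with 1275 endothelial nuclei of undetermined kind and 16591 nuclei in no class. The names rest on these markers alone. L20 replicate 2 stood apart, with 11.2% luminal, 29.6% fibroblast and 15.0% macrophage nuclei and 427 of the 509 adipocyte nuclei. Levels are given in CPM, UMI counts scaled to a total of 1000000 UMIs of the class in that gland, so values of different genes are not set against each other. Free RNA from other cells can add to the level of any class and was not measured. The level of a member in T and NK nuclei is given beside its levels outside endothelium.

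The members were spread unevenly over the classes of cells. In a fit with the sow as a block, each class was compared with the mean of the other 9 classes (edgeR quasi-likelihood test, Benjamini-Hochberg adjustment over 11472 genes, called at an adjusted p under 0.05 and an absolute log2 difference over 1). Of the 100 pairs of member and class, 52 were called, 24 higher and 28 lower in the class. Blood endothelial nuclei had 6 members called higher and 1 lower, against 10.7% of all genes called in either direction, and lymphatic endothelial nuclei had 5 higher and 2 lower against 12.2%. Luminal nuclei had 1 higher and 6 lower against 23.4%, myoepithelial nuclei 1 higher and 6 lower against 14.9%, and T and NK nuclei 5 lower against 16.9%. Mural nuclei had 3 higher against 11.2% and fibroblasts 3 higher against 11.8%. Adipocytes had 2 higher and 3 lower against 21.1%, macrophages 3 higher and 3 lower against 19.7%, and B and plasma nuclei 2 lower against 12.5%. The median log2 difference of the 10 members was 2.60 in blood endothelial nuclei, where that of all genes was -0.03, and 1.72 in lymphatic endothelial nuclei, where that of all genes was -0.02.

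**Figure D1:**
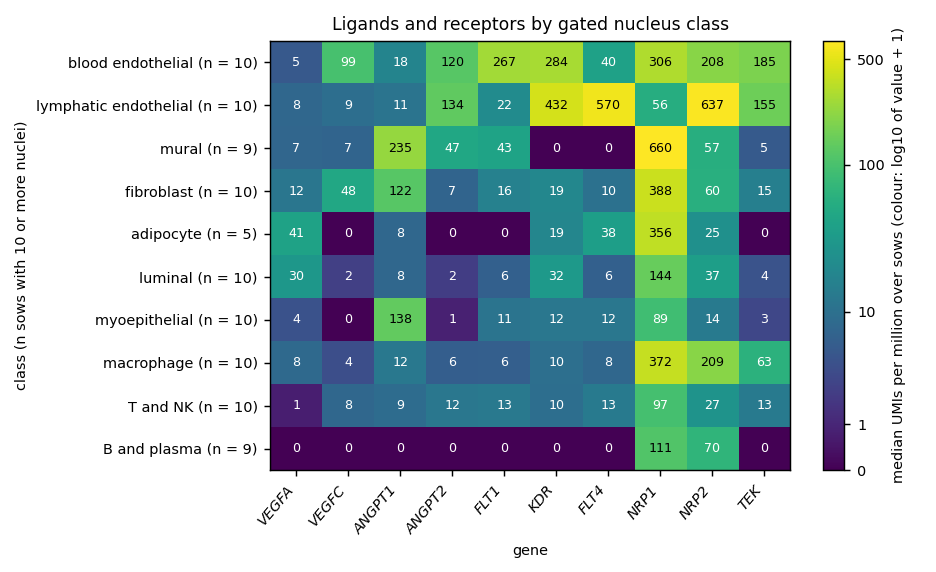
Median level of each member (columns) in each marker-gated class of gland nuclei (rows), printed in CPM and coloured by the log10 of that value plus 1, over the glands with at least 10 nuclei of the class. FLT1 peaks in blood endothelial nuclei (median 267), FLT4 and NRP2 in lymphatic endothelial nuclei (medians 569.8 and 637), and ANGPT1 in mural nuclei (median 235), myoepithelial nuclei and fibroblasts.

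VEGFA, the main ligand of KDR, was called higher in luminal epithelium and in adipocytes. Luminal nuclei of the G90 sows gave 33.9 and 97.3 CPM, those of L0 sows 26.7 and 36.5, those of L20 sows 34.0 and 12.7, those of PI2 sows 12.3 and 69.8, and those of PI7 sows 13.4 and 14.2. The 2 PI2 sows gave the lowest value and, after G90 replicate 2, the highest. Luminal VEGFA was higher than the mean of the other classes by 1.41 on the log2 scale (SE 0.21, edgeR adjusted p = 1.60e-08). It was above the level in macrophages, T and NK nuclei, blood endothelial nuclei and lymphatic endothelial nuclei in 10 of 10 glands, and above that in fibroblasts and in myoepithelial nuclei in 9 of 10. Luminal nuclei held the highest VEGFA of any class in 4 of 10 glands, adipocytes in 4, B and plasma nuclei in 1 and mural nuclei in 1. T and NK nuclei gave 0 to 19.8 with a median of 0.734. Adipocyte nuclei also carried more VEGFA than the mean of the other classes (log2 difference 3.14, SE 0.44, edgeR adjusted p = 8.60e-09). That class reached 10 nuclei in 5 glands, at 551 in L20 replicate 1, 37.7 in L20 replicate 2, 40.8 in PI2 replicate 1, 56.3 in PI7 replicate 1 and 0 in PI7 replicate 2, and the highest value rested on 10 nuclei. Many of these adipocyte nuclei carried at least 2 markers of a second class. In the same order of glands they were 3 of 10, 258 of 427, 21 of 23, 14 of 19 and 8 of 12. The part of other cells' RNA in adipocyte VEGFA was not tested.

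VEGFC was held by blood endothelium and fibroblasts. Its level in blood endothelial nuclei was 60.7 to 233 with a median of 98.8, and in fibroblasts 9.31 to 373 with a median of 48.3. Blood endothelial nuclei held the highest level of any class in 7 of 10 glands and fibroblasts in 3. B and plasma nuclei had no VEGFC UMI in any of 9 glands, which distorts a mean over classes on the log scale, so the comparison was repeated without that class, an alternative chosen after seeing the data. In that fit the log2 difference was 3.84 for blood endothelial nuclei and 3.08 for fibroblasts, against 4.67 and 3.96 with the class kept, and both were called in both fits. Adipocyte nuclei, kept in both fits, held 4 VEGFC UMIs in L20 replicate 2 and none in any other gland. The same distortion may therefore remain in both fits. The blood endothelial difference with B and plasma nuclei kept was 5.35 without L20 replicate 2. Luminal nuclei lay at 1.25 to 7.04, a range that T and NK nuclei (0 to 17.4) overlapped.

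ANGPT1 was called higher in the cells around vessels and ducts. Its level was 46.8 to 664 with a median of 235 in mural nuclei, 44.4 to 271 with a median of 138 in myoepithelial nuclei, and 23.3 to 597 with a median of 122 in fibroblasts. Against the mean of the other classes the log2 difference was 3.62 (SE 0.30), 2.45 (SE 0.29) and 2.85 (SE 0.27) in that order, each called. The blood endothelial median was 17.9 and the luminal median 7.77. T and NK nuclei gave 0 to 109 with a median of 8.80. Mural nuclei had the highest level in 5 glands, fibroblasts in 4 and T and NK nuclei in 1, L20 replicate 1, where 34 such nuclei held 3 ANGPT1 UMIs.

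ANGPT2 was highest in lymphatic endothelial nuclei in 5 glands, in blood endothelial nuclei in 3 and in mural nuclei in 2. It lay at 76.5 to 252 with a median of 119.9 in blood endothelial nuclei and at 83.4 to 188 with a median of 134 in lymphatic endothelial nuclei, both above the fibroblast range of 0 to 16.9 and the luminal range of 0.762 to 9.67. The log2 difference from the other classes was 3.66 (SE 0.20) in blood and 3.45 (SE 0.20) in lymphatic endothelial nuclei. Mural nuclei, at 0 to 179 beside 0 to 36.2 in T and NK nuclei, also differed (2.43, SE 0.33). Without L20 replicate 2 these differences were 4.66, 4.30 and 3.34. That mural call was lost when nuclei carrying markers of a second class were left out (1.23, edgeR adjusted p = 0.100).

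TEK, the angiopoietin receptor, stood high in both endothelia and at a lower level in macrophages. Blood endothelial nuclei gave 103 to 347 with a median of 185, and lymphatic endothelial nuclei 115 to 241 with a median of 155. The log2 difference from the other classes was 3.71 (SE 0.18) and 3.17 (SE 0.20). Macrophage TEK was 44.4 and 48.7 CPM in the G90 glands, then 62.5 and 84.3 (L0), 17.2 and 58.4 (L20), 89.9 and 66.3 (PI2) and 81.8 and 64.4 (PI7), which is 1.45 above the mean of the other classes on the log2 scale (SE 0.23, edgeR adjusted p = 8.48e-08). Macrophage TEK was above that of luminal nuclei and of fibroblasts in 10 of 10 glands and above that of T and NK nuclei (0 to 36.3) in 9 of 10, with L20 replicate 1 the exception. Luminal TEK lay at 1.97 to 14.7.

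NRP1 was called higher in several classes outside endothelium, and NRP2 in both endothelial classes and in macrophages. NRP1, a co-receptor for VEGFA and semaphorins, was present in every class, with medians of 659.7 in mural nuclei, 388 in fibroblasts, 372 in macrophages and 306 in blood endothelial nuclei, and was lowest in lymphatic endothelial nuclei (0 to 92.3, median 56.2). T and NK nuclei gave 39.5 to 116 with a median of 97.2. NRP1 was called higher in mural nuclei (log2 difference 1.70), fibroblasts (1.18), macrophages (1.05) and adipocytes (1.20), and lower in lymphatic endothelial (-2.01), T and NK (-1.30), B and plasma (-1.40) and myoepithelial nuclei (-1.27). The mural call ended without mixed nuclei (0.66), the macrophage value fell just below the limit of 1 under several alternatives, and the adipocyte difference turned to -0.10 without L20 replicate 2. NRP2, a co-receptor of VEGFC and FLT4, was highest in lymphatic endothelial nuclei in 10 of 10 glands (log2 difference 3.43) and was also called higher in macrophages (1.72, levels 116 to 412) and blood endothelial nuclei (1.59). T and NK nuclei held 0 to 91.5 of NRP2 with a median of 27.1.

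Blood and lymphatic endothelium of the same glands shared some receptors and divided others. In a fit of both classes with the sow as a block, 1123 of 11657 genes were called, which is 9.63%, and 5 of the 10 members were among them. FLT1, VEGFC and NRP1 were higher in blood and FLT4 and NRP2 in lymphatic endothelial nuclei. All 5 calls held when each gland was left out in turn and without the sow block. The median log2 difference (blood minus lymphatic) was 0.27 for the members and 0.04 for all genes.

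FLT1, the high-affinity VEGFA receptor, was on the blood side. Blood endothelial nuclei of the G90 glands held 207 and 260.2 CPM, followed by L0 with 169.6 and 214, L20 with 285 and 315, PI2 with 309.9 and 251 and PI7 with 274 and 283. In lymphatic endothelial nuclei of the same glands, in that order, it was 30.0 with 1.97, 5.87 with 20.1, 13.2 with 33.0, 7.44 with 23.6, and 32.3 with 24.0. The ranges did not overlap, and T and NK nuclei had a median of 12.7 beside the lymphatic median of 21.8. The log2 difference was 3.74 (SE 0.23, edgeR adjusted p = 2.72e-12).

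FLT4, the receptor of VEGFC and a marker of lymphatic vessels, went the opposite way. Lymphatic endothelial nuclei of the G90 glands held 398 and 208 CPM, followed by L0 with 640.4 and 603, L20 with 461 and 456, PI2 with 1799 and 543 and PI7 with 597 and 1481. Blood endothelial nuclei of the same glands, in that order, held 13.9 with 8.01, 10.1 with 0, 41.0 with 48.5, 267 with 42.9, and 39.0 with 71.9. Lymphatic nuclei were higher in 10 of 10 glands, and the groups overlapped through PI2 replicate 1 alone, whose blood endothelial level exceeded the lowest lymphatic one. That gland also had the highest FLT4 of all glands in luminal nuclei (87.3), macrophages (64.9), fibroblasts (102) and mural nuclei (179). The same held for adipocyte (91.8), myoepithelial (38.5) and T and NK nuclei (38.5), and its nuclei of no class held 376. The part of free RNA in those values was not tested. The log2 difference was -3.87 (SE 0.22, edgeR adjusted p = 1.00e-12).

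VEGFC, the ligand of FLT4, was on the blood side. Lymphatic endothelial nuclei held 0 to 21.9 with a median of 9.41 (T and NK median 7.80), and every blood endothelial value was above that range. The difference was 3.73 on the log2 scale (SE 0.23, edgeR adjusted p = 2.62e-12). In each of the 10 glands the ligand was higher in the blood and its receptor higher in the lymphatic class.

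The co-receptors split in the same 2 directions. NRP1 lay at 193 to 436 in blood and 0 to 92.3 in lymphatic endothelial nuclei without overlap (log2 difference 2.35, SE 0.22, edgeR adjusted p = 3.90e-09). NRP2 lay at 104 to 286 in blood and 401 to 758 in lymphatic endothelial nuclei, again without overlap (-1.53, SE 0.16, edgeR adjusted p = 2.98e-08). The pairs FLT1 with NRP1 and FLT4 with NRP2 were thus each higher in the same endothelial class.

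KDR and TEK belonged to both kinds of vessel. KDR was 365 to 681 in lymphatic and 110.4 to 558 in blood endothelial nuclei and was higher in the lymphatic class in 8 of 10 glands. Its log2 difference of -0.77 (SE 0.18, edgeR adjusted p = 0.00192) passed the p threshold but not the limit on its size. TEK was higher in blood in 8 of 10 glands, by 0.60 (SE 0.16, edgeR adjusted p = 0.00634), also below the limit. ANGPT2 differed by 0.15 (SE 0.17, edgeR adjusted p = 0.669), ANGPT1 by 0.39 (SE 0.26) and VEGFA by -0.16 (SE 0.38), none of them called, and the sign for ANGPT2 turned when either G90 replicate 2 or PI2 replicate 1 was left out.

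**Figure D2:**
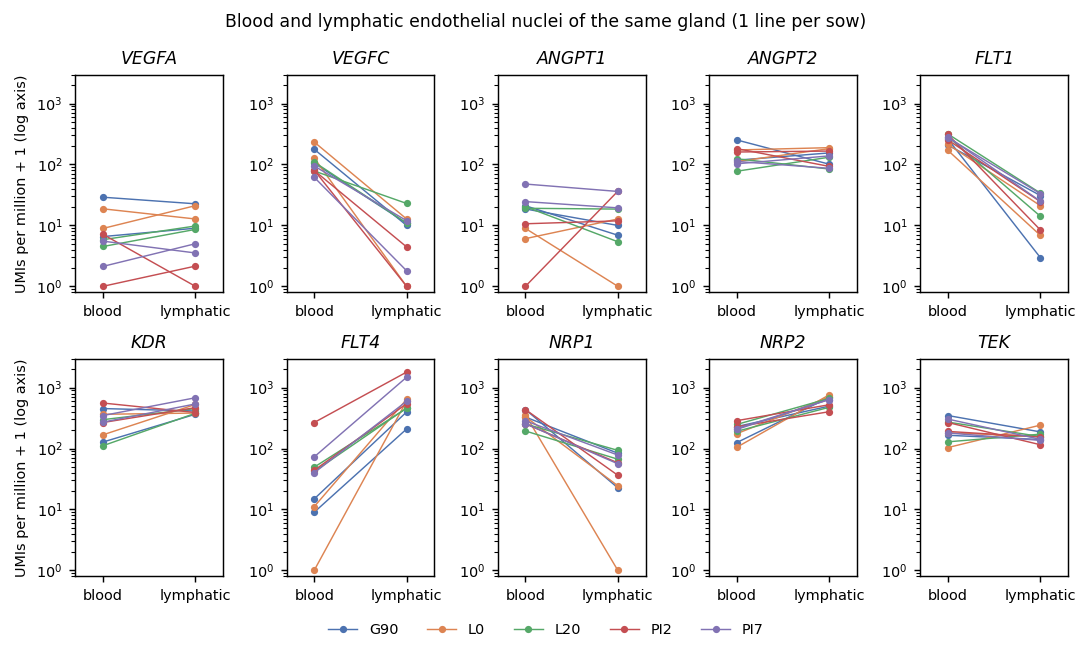
Level of each member in blood and in lymphatic endothelial nuclei of the same gland, in CPM plus 1 on a log axis, with 1 line per gland coloured by stage. FLT1, VEGFC and NRP1 are higher in blood and NRP2 and FLT4 higher in lymphatic nuclei in all 10 glands, while the KDR, TEK and ANGPT2 ranges overlap.

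Pathway genes outside the 10 members were called in both directions between the endothelia, where 9.63% of all genes were called. Of 48 listed genes 45 were in the tables. Among 7 receptor partners tested, NOS3 (the endothelial nitric oxide synthase, log2 difference 3.69), PTPRB (the phosphatase that restrains TEK, 2.40) and PLXND1 (a semaphorin receptor, 1.07) were higher in blood, and PLCG1 (a phospholipase downstream of KDR, -1.18) was higher in lymphatic nuclei. Both called members of the 3 tested genes of ligands and processing were higher in lymphatic nuclei, namely ANGPT4 (-1.84) and ADAMTS3, a protease that processes VEGFC (-1.43). Of 6 semaphorins, which compete for neuropilins, SEMA3G was higher in blood (4.61) and SEMA3D (-3.34) and SEMA3A (-2.14) in lymphatic nuclei. Of 7 tip cell genes, APLNR (6.03) and its ligand APLN (2.81) were higher in blood and ANGPTL2 (-2.33) and UNC5B (-2.09) in lymphatic nuclei. Of 14 hypoxia genes, EPAS1 (2.90) and HIF1A (1.03) were higher in blood and ANGPTL4 (-1.43) in lymphatic nuclei. The list medians were -0.27 for receptor partners, -1.43 for ligands and processing, 0.09 for semaphorins, -0.05 for tip cell genes and 0.19 for hypoxia genes.

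Other classes held other parts of the pathway. Fibroblasts had 4 of 5 tested genes of ligands and processing called higher than the mean of the other classes, VEGFD (4.67), ADAMTS3 (2.29), CCBE1 (2.25) and ANGPT4 (1.31), with a list median of 2.25 against 0.04 over all genes, in a class where 11.8% of all genes were called. VEGFD is a second ligand of FLT4, and CCBE1 is the cofactor with which ADAMTS3 cleaves VEGFC. Fibroblasts also had 4 of 6 semaphorins called higher, SEMA3A (3.23), SEMA3C (2.72), SEMA3D (1.85) and SEMA3E (1.29), against the same 11.8%. Among the same 5 genes of ligands and processing and 6 semaphorins, luminal nuclei had PGF, a ligand of FLT1 (1.84), and SEMA3F (1.50) called higher. Lower calls of these lists are not given here, while the 23.4% of all genes called counts both directions. Of the same lists, myoepithelial nuclei had ADAMTS3 (4.17), SEMA3E (3.72) and SEMA3C (2.83) called higher, against 14.9% in both directions, again without the lower calls. Of 14 hypoxia genes tested between classes (with CA9 and without ANKRD37, the reverse of the comparison of endothelia), adipocytes had 4 called higher, BNIP3 (3.54), PFKFB3 (2.88), P4HA1 (1.53) and KDM3A (1.15), and 3 lower, NDRG1 (-1.46), EPAS1 (-1.83) and CA9 (-2.61), with a list median of 0.24 and against the 21.1% of all genes called in that class.

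KDR was also counted in luminal nuclei. Its luminal level was 7.59 and 2.69 CPM in G90 sows and 15.4 and 8.06 in L0 sows. It was 40.0 and 95.8 in L20 sows, 30.5 and 227 in PI2 sows, and 32.9 and 37.3 in PI7 sows. The values of G90 and L0 lay below all those of the later stages, a split that was read off these levels and was not tested. The luminal genes that split this way were not counted, so the split is not read as particular to KDR. Against the mean of all other classes, the endothelial ones included, luminal KDR was not called. Against the mean of fibroblasts, macrophages and T and NK nuclei the log2 difference was 1.57 (SE 0.26), and 1.19 to 1.72 when each gland was left out. These classes were chosen after the luminal level had been seen, so the value is a description with no test, in a fit where 27.5% of 13532 genes were called. Luminal KDR was higher than in macrophages in 9 of 10 glands, in fibroblasts in 7 and in T and NK nuclei in 6.

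The highest luminal KDR was in PI2 replicate 2. In that gland 227 in luminal nuclei stood against 4.94 in T and NK nuclei, 22.1 in macrophages and 28.2 in fibroblasts. KDR was high there in other nuclei as well, at 121 in 52 myoepithelial nuclei and 143 in nuclei of no class. A KDR UMI was found in 23.0% of its luminal nuclei (median 1846.5 UMIs) and 0.538% of its T and NK nuclei (median 918 UMIs). After thinning to 1000 UMIs the shares were 15.1% of 6659 luminal nuclei and 0 of 78 T and NK nuclei, with 571 and 108 shallower nuclei left out. In the other PI2 gland 5.54% of luminal and 2.50% of T and NK nuclei had a KDR UMI, but the levels were 30.5 and 32.6 CPM, and after thinning the shares were 2.62% of 6763 luminal and 4.39% of 114 T and NK nuclei. Over the 10 glands the thinned share was higher in luminal than in T and NK nuclei in 5.

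Luminal nuclei with a KDR UMI carried more markers of both luminal and endothelial kind. The mean number of luminal markers was higher with than without a KDR UMI in each gland, at 4.89 against 4.36 in PI2 replicate 2. The mean number of endothelial markers was higher in 9 of 10 glands, and the median UMI count in 10 of 10. The endothelial means were 0.422 with and 0.354 without in PI2 replicate 2, where KDR was highest. They were 1.64 and 0.942 in PI2 replicate 1, 1.46 and 0.887 in G90 replicate 1, and 2.11 and 1.13 in PI7 replicate 1. The part of endothelial RNA in luminal KDR was not tested. When nuclei with markers of a second class were left out, the log2 difference of luminal KDR from the 3 other classes was 1.54.

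**Figure D3:**
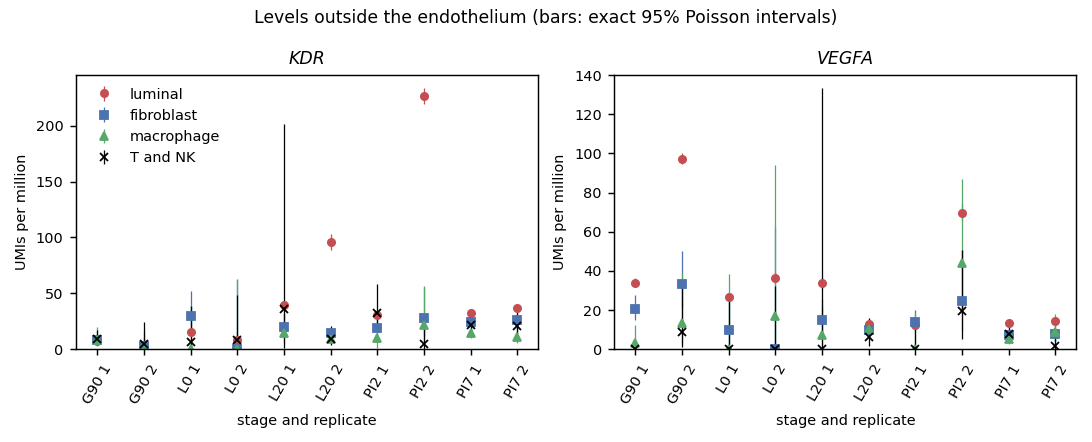
KDR (left) and VEGFA (right) in luminal, fibroblast, macrophage and T and NK nuclei of each gland, in CPM on linear axes, with exact 95% Poisson intervals as bars. Luminal KDR stands at 227 in PI2 replicate 2 and 95.8 in L20 replicate 2, and luminal VEGFA is the highest of the 4 classes in 9 of 10 glands.

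Between stages no member passed the test. In the sum of all nuclei of a gland, fewer cells of a type and less RNA per cell cannot be told apart. The members that passed the filter on low counts were therefore also tested within blood endothelial nuclei and within 7 further classes. A member that failed the filter in a class was not tested there. None of 315 member tests in 9 fits was called (edgeR quasi-likelihood test, 5 comparisons a fit), while 28 had an unadjusted p under 0.05. The lowest adjusted p was 0.133. In the whole gland 0% of 22695 genes were called in each comparison, with 464 to 2912 genes at an unadjusted p under 0.05 and 1716 calls over the 5 comparisons by DESeq2. In blood endothelial nuclei 0% of 10204 genes were called, with 185 to 643 at an unadjusted p under 0.05 and 55 calls by DESeq2. Elsewhere the share called was 0.0605% for L0 to L20 in lymphatic endothelial nuclei, 0.00496% for G90 to L0 and 0.00992% for other stages to lactation in luminal nuclei, 0.0121% for G90 to L0 in macrophages, 0.0173% and 0.155% for L0 to L20 in myoepithelial and mural nuclei, 0.0361% for G90 to L0 and 0.012% for L0 to L20 in T and NK nuclei, and 0% in the remaining comparisons. No pathway gene tested was called between stages, and many of the 45 failed the filter on low counts in the smaller classes. On simulated counts the whole-gland fit of L0 to L20 found 0% of 4-fold and 53% of 16-fold changes, and the blood endothelial fit 21% and 96%. False calls numbered 4 and 3 in these fits. Only genes with over 5 expected UMIs in the smallest sum were changed, and all genes had the same spread. The shares found do not cover members with lower counts.

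NRP2 gave the smallest p between stages. Luminal NRP2 stood at 5.81 and 6.70 CPM in the L0 glands. It was 20.7 and 14.8 before that, in G90 glands, and 29.5 and 72.1 later, in L20 glands, then 45.0 and 75.1 (PI2) and 100.1 and 48.6 (PI7). Both L0 glands were below all others, an order read off these levels and not tested, and genes with this order were not counted. From L0 to L20 the log2 difference was 2.48 (SE 0.52, edgeR adjusted p = 0.133), and DESeq2 and the fit with no filter on low counts did call it (adjusted p = 8.09e-04 and 0.0247). In the whole gland the level went from 14.3 and 11.5 at L0 to 47.8 and 172 at L20 (2.42, SE 0.53, edgeR adjusted p = 0.177; DESeq2 0.00181). The 172 is that of L20 replicate 2, the gland that stood apart in its makeup, and the log2 difference was 1.68 without it and 3.01 without L20 replicate 1.

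Fibroblast ANGPT1 was 201 and 597 CPM in G90 sows and 247 and 389.8 in L0 sows. The later glands gave 23.3 and 50.9 (L20), 44.4 and 155 (PI2) and 88.7 and 30.2 (PI7). The 4 glands of G90 and L0 were above the 6 later ones. That split was read off these levels and was not tested, and genes that split this way were not counted. From L0 to L20 the log2 difference was -2.89 (SE 0.79, edgeR adjusted p = 0.52), called by DESeq2 (adjusted p = 0.0429) and with no filter on low counts (0.00236). The ANGPT1 difference was -3.58 without L20 replicate 2 and -2.44 without L20 replicate 1. Fibroblast VEGFC was 373 and 136 CPM in the L0 glands, against 47.0 and 109.5 (G90), 9.31 and 103 (L20), 34.9 and 17.6 (PI2) and 34.8 and 49.6 (PI7). Its 2 highest values were those of L0, an order that was not tested, and genes with this order were not counted.

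Within blood endothelium no receptor passed the test between stages. FLT1 went from 169.6 to 315 over the 10 glands, and its log2 differences between adjacent stages were -0.28, 0.59, -0.12 and -0.09 (SE 0.38 to 0.40). TEK differed by -0.82, 0.39, 0.16 and -0.01 (SE 0.52 to 0.54) and KDR by -0.12, -0.44, 1.01 and -0.49 (SE 0.65 to 0.67). VEGFC was 233 and 127 CPM in L0 glands, 177 and 104 before (G90) and 77.3 with 109 (L20), 78.7 with 79.7 (PI2) and 93.5 with 60.7 (PI7) after, and its L0 to L20 difference was -1.05 (SE 0.49, edgeR adjusted p = 0.781). FLT4 differed by 2.55 from L0 to L20 (SE 0.99, edgeR adjusted p = 0.723) and by 1.79 from L20 to PI2 (SE 0.71), at levels of 0 to 267 that included PI2 replicate 1.

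Over all nuclei of a gland KDR ranged from 9.37 to 214, FLT1 from 4.19 to 48.2, TEK from 4.03 to 56.7 and FLT4 from 3.93 to 241. VEGFA went from 10.6 and 66.6 at PI2 to 8.91 and 11.3 at PI7 (log2 difference -2.30, SE 1.01, edgeR adjusted p = 0.998). The 10.6 lies between the PI7 values, so that difference rests on PI2 replicate 2. Blood endothelial nuclei were 2.42% ± 1.80 (SD, n = 4) of a gland in lactation and 3.90% ± 3.32 (SD, n = 6) otherwise (exact two-sided permutation test over 210 splits, p = 0.457). Lymphatic endothelial nuclei were 3.24% ± 4.58 (SD, n = 4) and 5.49% ± 3.91 (SD, n = 6), with the same exact permutation p of 0.457, unchanged by adjustment over the 2 tests. The blood endothelial difference (lactation minus other) was -1.48 percentage points, and ran from -2.33 without L20 replicate 2 to -0.30 without PI7 replicate 1 (exact permutation p = 0.214 and 0.762). The lymphatic difference was -2.25 percentage points, and ran from -4.53 without L20 replicate 2 to -1.32 without L0 replicate 2 (exact permutation p = 0.143 and 0.762).

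**Figure D4:**
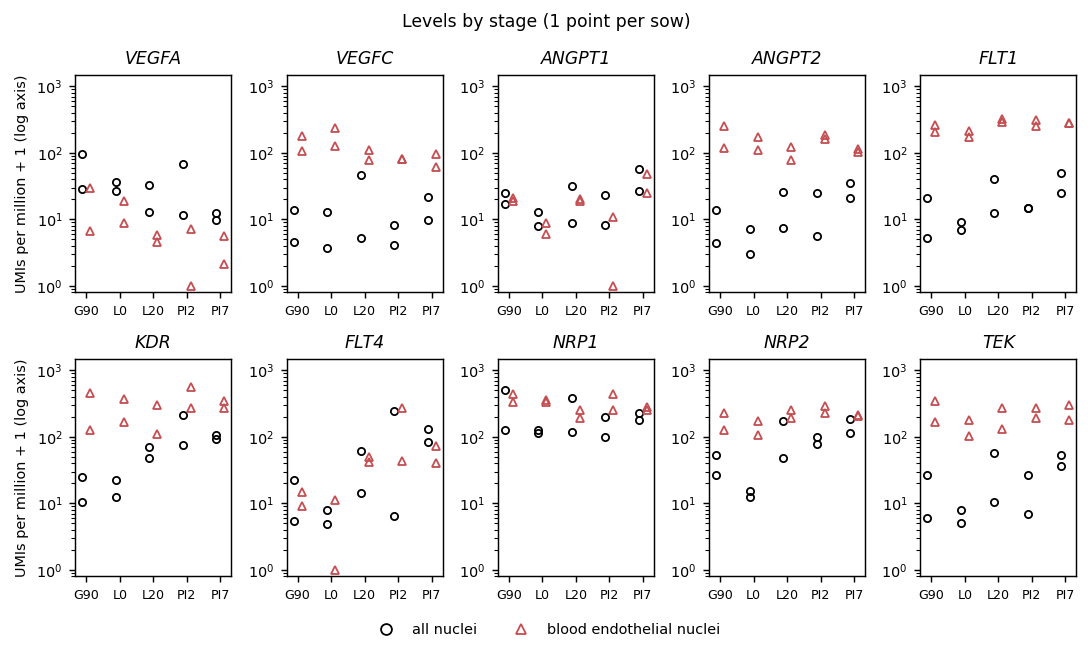
Level of each member by stage over all nuclei of a gland (circles) and within blood endothelial nuclei (triangles), in CPM plus 1 on a log axis, 1 point per sow and 2 sows per stage. FLT1 in blood endothelial nuclei lies between 169.6 and 315 at all 5 stages, while over all nuclei it spans 4.19 to 48.2.

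The sections placed the receptors by position rather than by nucleus. A spot covers several cells, there was 1 section per stage and no test, and the intervals are exact 95% Poisson intervals that cover counting error only. The G90 section had 4718 kept spots and the PI2 section 2198. Over all spots KDR was 25.7 (24.2 to 27.3) at G90 and 21.0 (18.9 to 23.3) at PI2 in CPM, FLT1 8.41 (7.56 to 9.32) and 11.6 (10.0 to 13.3), TEK 8.43 (7.58 to 9.35) and 20.0 (17.9 to 22.1), and NRP1 109 (105 to 112) and 48.6 (45.4 to 51.9). VEGFA had 27 UMIs in each section, 0.631 (0.416 to 0.918) and 1.51 (0.995 to 2.20) CPM.

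Spots were ranked by the share of UMIs from the markers of a class, and the highest 10% were set against the rest. The list called blood endothelial here joined the markers of both kinds of endothelium to the blood-specific ones. It therefore does not separate blood from lymphatic vessels. FLT4 followed the lymphatic markers, at 61.0 (50.8 to 72.6) against 5.50 (4.80 to 6.27) in the G90 section and 133 (107 to 163) against 4.77 (3.80 to 5.92) in the PI2 section. NRP2 followed them less steeply, at 28.1 (21.3 to 36.3) against 12.8 (11.8 to 14.0) and 39.6 (26.3 to 57.2) against 13.1 (11.4 to 14.9). FLT1 did not follow them, at 10.2 (6.29 to 15.5) against 8.32 and 8.48 (3.11 to 18.5) against 11.7.

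FLT1 followed the blood endothelial markers, at 28.4 (22.5 to 35.4) against 7.02 (6.22 to 7.89) at G90 and 39.3 (28.8 to 52.5) against 9.63 (8.20 to 11.2) at PI2. TEK did so as well, at 36.6 (29.9 to 44.5) against 6.47 and 61.6 (48.2 to 77.6) against 17.0. VEGFC was 14.4 (10.3 to 19.6) against 6.47 and 13.7 (7.82 to 22.2) against 2.87, from 40 and 16 UMIs in the highest spots. FLT4 was also higher in spots high in blood endothelial markers, at 32.3 (26.0 to 39.7) against 6.50 and 42.8 (31.7 to 56.4) against 7.54. KDR was higher with neither list in the G90 section (28.7 against 25.5 for blood and 28.6 against 25.5 for lymphatic markers, with overlapping intervals) and with both in the PI2 section (44.5 against 19.4 and 48.1 against 19.9).

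**Figure D5:**
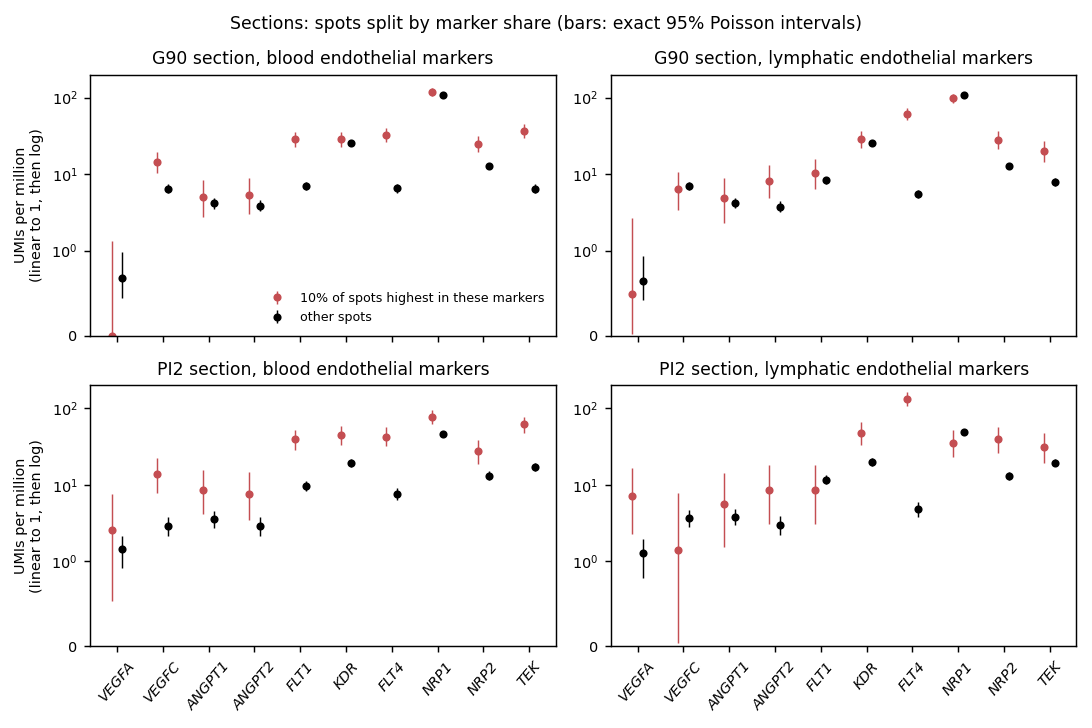
Level of each member in the 10% of spots highest in blood endothelial markers (left) or lymphatic endothelial markers (right) and in the other spots, for the G90 section (top) and the PI2 section (bottom), in CPM on an axis that is linear to 1 and then logarithmic, with exact 95% Poisson intervals as bars. FLT4 stands at 61.0 and 133 in the spots highest in lymphatic markers, and FLT1 at 28.4 and 39.3 in those highest in blood endothelial markers. The blood endothelial list includes markers shared by both kinds of endothelium.

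Milk cells held the ligand VEGFA and the neuropilins, and few UMIs of the vessel receptors. The 17571 cells of the L0 library and 14514 of the L20 library had 31 and 3 KDR UMIs and 27 and 5 FLT4 UMIs in all. FLT1 had 155 and 74 UMIs (1.91 and 1.72 CPM) and TEK 98 and 141 (1.21 and 3.28 CPM), where the lowest gland had 4.19 and 4.03 CPM of these receptors. Milk libraries held whole cells and gland libraries nuclei, made with different kits, so these levels are not like measures. VEGFA was 39.0 CPM (37.4 to 40.7) in luminal cells at L0 and 13.8 (11.5 to 16.3) at L20, 48.9 (41.9 to 56.7) and 85.7 (80.8 to 90.8) in macrophages, and 15.3 (13.5 to 17.3) and 39.0 (35.6 to 42.7) in neutrophils. With 1 library a stage, the lower luminal and higher macrophage and neutrophil values of the L20 library cannot be told apart from a difference between libraries. T and NK cells of milk gave 19.4 (9.69 to 34.7) at L0, which the neutrophil value there did not exceed, and 6.51 (3.56 to 10.9) at L20. NRP1 was 165 (152 to 179) and 116 (110 to 122) in macrophages, 116 (111 to 122) and 67.6 (63.1 to 72.5) in neutrophils and 7.44 (6.75 to 8.19) and 4.38 (3.16 to 5.93) in luminal cells. T and NK cells gave 15.9 and 15.3 of NRP1 and 5.30 and 4.65 of NRP2. NRP2 was 115 (104 to 126) and 75.4 (70.8 to 80.2) in macrophages, and TEK there was 7.78 (5.17 to 11.2) and 6.13 (4.87 to 7.61), against 0.406 (0.257 to 0.609) and 0.313 (0.0646 to 0.915) in luminal cells and 1 TEK UMI in the T and NK cells of each library. Many of these cells also carried at least 2 markers of a second class, 405 of 577 and 1244 of 1500 macrophages and 2706 of 3015 and 494 of 1146 luminal cells at L0 and L20. Without such cells NRP1 was 286 and 146 and NRP2 183 and 132 in macrophages, while VEGFA was 59.4 and 103 in macrophages and 45.4 and 15.8 in luminal cells.

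The genes whose levels ran most like those of each member were found by Pearson's r of log2 levels over the 93 sums of class and gland, among 9854 genes. These sums share glands and classes, so r is a description. KDR ran with ERG (0.851), an endothelial transcription factor, and CLDN5 (0.824), an endothelial junction protein, both of them among the markers of the gate, as were MMRN1 for FLT4 (0.826) and EMCN for ANGPT2 (0.832). Outside the gate's lists KDR ran with KANK3 (0.807), FLT4 with CHP2 (0.824), ANGPT2 with FGD5 (0.803), TEK with TM6SF1 (0.759) and FLT1 with AQP1 (0.666), a water channel of capillaries. VEGFC ran with GATA6 (0.725), ANGPT1 with LHFPL6 (0.742), NRP2 with SH2B3 (0.733) and NRP1 with VCAM1 (0.581). VEGFA had the weakest likeness, with PGF (0.516), the ligand of FLT1 that luminal nuclei also carried.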

How the data were processed

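Gland nuclei and milk cells were profiled with GEXSCOPE kits and sections with Visium. The authors aligned the reads to Sscrofa11.1 and deposited UMI counts per gene and barcode, not normalized (CeleScope for nuclei and cells, Space Ranger for sections). Of 30071 gene identifiers 15900 carry a symbol. Barcodes with under 300 genes or over 25% mitochondrial UMIs were left out. A barcode joined a class with at least 2 of its markers and more than of any other class. Endothelial nuclei were blood or lymphatic by the larger number of specific markers. No doublet caller was run, and leaving out nuclei with at least 2 markers of a second class stands in for it. UMIs were summed per sow and class (at least 10 nuclei) and tested with edgeR 4.0.16 (quasi-likelihood, TMM, filterByExpr, R 4.3.3), a gene being called at a Benjamini-Hochberg adjusted p under 0.05 and an absolute log2 fold change over 1. One fit held all 5 stages, and class comparisons had the sow as a block. DESeq2 1.42.0 was an alternative. Replicates are separate sows. Nuclei totals were 18962138 to 53165191 UMIs a gland, and intervals cover counting error only. Listed genes not used here for lack of a matching symbol were KRT19, KRT17, DSC3, LAMA2, AQP7, STAB2, ADGRE1, S100A9 and CXCR2 among markers and VEGFB, VHL and SLC2A1 among pathway genes. The named genes are the 10 members and the pathway lists. Members, lists and comparisons were chosen with earlier results of these data known. Scripts were tested on simulated data, where the blood and lymphatic comparison found 54% of 2-fold and 100% of 4-fold changes. Only genes with over 5 expected UMIs in the smallest sum were changed there. The effect of each alternative is given at the end.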

Additional observations from a re-analysis of the deposited data

Results flagged for a closer look

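In 36 groups of 4 to 10 glands tested for 1 gland standing far from the rest, 8 did so. The groups were each member in all nuclei and each pair of member and class called higher. Luminal KDR and luminal FLT4, which were not called higher, were added by choice, and both are among the 8. The limits used flag about 1 in 20 groups of independent, normally distributed values. These groups pool stages and share glands, so that rate need not hold here and 8 is not read as an excess. KDR was 214 CPM in all nuclei of PI2 replicate 2 against 9.37 to 104 in the other glands, and 227 in its luminal nuclei against 2.69 to 95.8. Luminal nuclei held 3624 of the 4009 KDR UMIs of that gland, so both values rest largely on the same counts. VEGFA was 551 in adipocyte nuclei of L20 replicate 1 against 0 to 56.3, from 10 nuclei. FLT4 was 87.3 in luminal nuclei of PI2 replicate 1 against 1.81 to 33.8, in the gland with the highest lymphatic endothelial FLT4 (1799). FLT4 in that gland was also the highest of all glands in fibroblasts (102), mural nuclei (179) and T and NK nuclei (38.5). VEGFC was 44.8 in all nuclei of L20 replicate 2 against 2.72 to 20.4, in the gland with the largest share of fibroblasts (29.6%), and 373 in fibroblasts of L0 replicate 1 against 9.31 to 136. ANGPT1 was 56.6 in all nuclei of PI7 replicate 1 against 7.06 to 30.7, and NRP2 was 412 in macrophages of G90 replicate 2 against 116 to 262. The cause of these values was not tested.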

How the results depend on the processing

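The 5 calls between blood and lymphatic endothelium held under each alternative. Over all alternatives, 1067 values for single genes kept their direction and side of the threshold, 54 lost their call, 6 gained one and 3 turned. The ANGPT2 difference between endothelia became -0.043 without G90 replicate 2 and -0.037 without PI2 replicate 1 (range -0.043 to 0.27), and NRP1 in adipocytes became -0.10 without L20 replicate 2 (range -0.10 to 1.51). Between stages, the whole gland had 1 member called by DESeq2 and 1 with no filter on low counts, and 1716, 333 and 407 genes by DESeq2, with no filter and with only the stages compared (0 to 15 with a gland left out). Blood endothelial nuclei had 55, 201 and 2 genes under these settings (0 to 3 with a gland left out). The other classes had 2 members by DESeq2 and 3 with no filter, and, against 22 genes, 2383 by DESeq2, 1558 with no filter, 981 with only the stages compared, 60 under the stricter filter on nuclei and 152 with 1 more marker needed (3 to 396 with a gland left out). Class comparisons called 26585 pairs of gene and class with no filter against 17709 (16323 to 19206 with a gland left out). Same-numbered glands of different stages deviated together with r of -0.522 to 0.386 over 10 pairs of stages, so the numbers do not pair sows. A fit with the replicate block called 0 members and 18 genes against 22 in the other classes. In the spots highest in lymphatic markers the level of FLT4 became 45.3 at G90 when spots were thinned to 1000 UMIs, and 114 at G90 and 232 at PI2 in the highest 5% of spots. FLT1 in spots highest in blood endothelial markers became 19.4 at G90 when thinned. In milk without mixed cells VEGFA was 59.4 and 103 in macrophages and 45.4 in L0 luminal cells, NRP1 286 and 146 and NRP2 183 and 132 in macrophages, and the stricter filter gave 80.5 for VEGFA and 104 for NRP1 in L20 macrophages. The cause of these shifts was not tested. Small classes entered the fits with as few as 10 nuclei in a gland, so some of their levels rest on few UMIs.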
